A study of Mus musculus with 5 samples.

Results

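The SIRP receptors, their ligand CD47, and the inhibitory receptors Siglec-E and PIR-B, together with the sialic acid receptor Siglec-1, were followed in cultured peritoneal macrophages of mice that lack or retain neuropilin 1. The 8 genes, Sirpa, Sirpb1a, Sirpb1b, Sirpb1c, Cd47, Siglec1, Siglece and Pirb, were taken by symbol from 38463 symbols in the expression table. The genes are named by family, but the set was selected on results that included the fold changes in FPKM between these same libraries. Their differences between the groups are therefore given as a description, and no p-value is given for them. The Nrp1 knockout libraries (2) came from LysMCre-Nrp1fl/fl mice labelled Nrp1-/-, in which floxed Nrp1 is cut by a Cre recombinase expressed from the lysozyme M gene of myeloid cells. The wild-type libraries (3) came from mice of the strain labelled C7/BL6, and the labels do not say whether they carried Cre or the floxed allele. An effect of Cre or of strain and an effect of the loss of Nrp1 cannot be told apart if they did not. Both groups were grown in F12 DMEM with 10% FBS, and the age and number of mice are not given in the sources used here. Levels are FPKM, that is, fragments counted relative to transcript length and library size, which allows genes of different length to be compared.

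Signal regulatory proteins are paired receptors of myeloid cells. SIRP-alpha (Sirpa) carries inhibitory tyrosine motifs in its cytoplasmic tail, and when it binds CD47 on another cell these motifs recruit the phosphatases SHP-1 and SHP-2 and restrain engulfment. The SIRP-beta receptors (Sirpb1a, Sirpb1b and Sirpb1c) have a very short tail and signal through the adaptor DAP12 (Tyrobp), which activates the kinase Syk. Siglecs bind sialic acids on cell surfaces. Siglec-1 (sialoadhesin, CD169) has no inhibitory motif and serves in adhesion and capture of sialylated particles, whereas Siglec-E is an inhibitory receptor of the CD33-related group. PIR-B (Pirb) is an inhibitory receptor for MHC class I, and the PIR-A receptors are its activating partners.

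The sequences of the SIRP genes show both the division of roles and how closely the SIRP-beta copies resemble each other. In GRCm38 (mm10), Sirpa lies on chromosome 2 at 129592835 to 129632228, on the plus strand. Sirpb1a (15371653 to 15426520), Sirpb1b (15495751 to 15575065) and Sirpb1c (15795145 to 15848528) lie on the minus strand of chromosome 3. The longest coding sequence of Sirpa has 1539 bases and each Sirpb1 copy has 1191, without the stop codon. The immunoreceptor tyrosine-based inhibitory motif (ITIM) was searched on the coding strand, in frame, in the last 348 coding bases. It was read as serine, isoleucine, valine or leucine, any residue, tyrosine, any pair of residues, and isoleucine, valine or leucine. The search found 3 in Sirpa, 2 in Pirb and 1 in Siglece, and 0 in Sirpb1a, Sirpb1b, Sirpb1c, Cd47 and Siglec1. The same search matched 19% of 20596 genes, so a match alone describes letters and not function. The last 60 coding bases of Sirpa are shown with the codons of such a motif in capitals, above the ends of Sirpb1a and Sirpb1c, which hold none.
Sirpa: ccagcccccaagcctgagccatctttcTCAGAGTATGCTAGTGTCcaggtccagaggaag
Sirpb1a: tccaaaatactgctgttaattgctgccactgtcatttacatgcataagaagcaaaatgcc
Sirpb1c: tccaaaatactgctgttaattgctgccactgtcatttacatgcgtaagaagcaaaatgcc

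Between the Sirpb1 copies, coding identity was 97.5% for Sirpb1a and Sirpb1b, 97.4% for Sirpb1a and Sirpb1c and 98.3% for Sirpb1b and Sirpb1c, against 71.0% to 71.6% between each copy and Sirpa. The 3 copies differ at 40 of the 1191 coding positions. Coding bases 192 to 251, counted from the start codon, are the 60-base window with the most such positions, 9, and are shown with these in capitals.
Sirpb1a: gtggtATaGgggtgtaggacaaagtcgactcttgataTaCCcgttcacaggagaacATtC
Sirpb1b: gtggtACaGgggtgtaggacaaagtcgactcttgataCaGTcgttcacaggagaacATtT
Sirpb1c: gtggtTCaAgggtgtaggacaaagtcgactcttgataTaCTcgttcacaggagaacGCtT
Of all 50-base stretches of the coding sequence, 35.7% in Sirpb1b and 30.7% in Sirpb1c occur in no transcript of another gene, and 65.1% in Sirpb1a. Reads from the remainder can be split between copies by the authors' counting, so the levels of single Sirpb1 copies are uncertain. The corresponding share was 47.8% in Pirb and 100% in Sirpa, Cd47, Siglec1 and Siglece.

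The 157 bases before the annotated start are also much alike, though less than the coding sequences in each pair, at chr3:15426521-15426677 for Sirpb1a, chr3:15575066-15575222 for Sirpb1b and chr3:15848529-15848685 for Sirpb1c. Capitals mark the 9 positions at which the 3 promoters differ in this RefSeq sequence of GRCm38, written on the minus strand.
Sirpb1a: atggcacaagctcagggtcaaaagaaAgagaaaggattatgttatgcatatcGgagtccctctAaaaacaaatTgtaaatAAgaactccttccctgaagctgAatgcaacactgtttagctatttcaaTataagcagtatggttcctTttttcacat
Sirpb1b: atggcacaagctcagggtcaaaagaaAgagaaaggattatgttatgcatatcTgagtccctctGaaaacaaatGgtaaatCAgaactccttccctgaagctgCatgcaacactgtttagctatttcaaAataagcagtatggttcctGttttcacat
Sirpb1c: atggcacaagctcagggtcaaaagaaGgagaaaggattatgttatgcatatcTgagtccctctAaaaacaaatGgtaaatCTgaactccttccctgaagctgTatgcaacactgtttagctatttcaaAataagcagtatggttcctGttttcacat
Sirpb1b and Sirpb1c are identical at 153 of the 157 positions, Sirpb1a and Sirpb1b at 150, and Sirpb1a and Sirpb1c at 149. As shown in the levels that follow, Sirpb1c was nonetheless the most abundant copy in every library.

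The summed FPKM of a library lay between 539101 and 629135, the highest in wild-type replicate 3, and sequencing depth is unknown. In wild-type replicate 3, 11014 genes reached 1 FPKM, against 11947 to 12020 in the rest. Nrp1, the targeted gene, stood at 7.63 and 7.70 FPKM in the knockout libraries, against 24.3, 19.0 and 11.5 in wild-type replicates 1, 2 and 3, and the groups did not overlap. Wild-type replicate 3 stood apart. Pearson's r across the 12214 tested genes was 0.929 to 0.938 between it and the rest, and 0.966 to 0.972 among the other 4 libraries. The macrophage genes Emr1 (F4/80) and Csf1r stood at 183 to 222 and 765 to 1108 FPKM over all libraries. All 12 macrophage markers reached 1 FPKM in at least 2 libraries, and they summed to 8647 to 8788 FPKM in the knockout libraries and 5895 to 6479 in the wild-type libraries. That gap came from Lyz1 alone, at 4680 and 5154 FPKM against 2361, 2071 and 832. The other 11 summed to 3967 and 3634 FPKM in the knockout libraries, against 3535, 4055 and 5646 in the wild-type libraries, which overlap. Lyz2, the gene whose promoter drives Cre, stood at 53.0 and 64.3 FPKM in the knockout libraries and was listed at 0 in all 3 wild-type libraries. How the authors' counting assigned reads between Lyz1 and Lyz2 was not tested, so neither difference is read as one of expression. The 8 mast cell markers summed to 36.8 and 20.3 FPKM in the knockout libraries, against 18.5, 28.2 and 185 in wild-type replicates 1, 2 and 3. The 12 mesothelial and fibroblast markers summed to 31.6 and 24.4 FPKM against 60.3, 57.5 and 25.7. The 8 T and NK cell markers summed to at most 1.19 FPKM.

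Across all genes, 7 of 12214 passed limma's test at an adjusted p under 0.05, which is 0.0573%, 5 higher (0.0409%) and 2 lower (0.0164%) in the knockout. Nrp1 itself was not among the 7, with a log2 difference of -1.09 ± 0.32 (SE) and a limma adjusted p of 0.93. Of the alternatives, only limma array weights called it (adjusted p = 0.023). A gene list without a called gene is therefore no sign that its genes did not change. Of the 8 SIRP, CD47, Siglec and PIR-B genes, which were part of this fit over the whole table, 0 were among the 7. As these genes were selected on the same contrast, that count is no test of them and nothing is read from it. At an unadjusted p under 0.05 there were 222 genes, 1.82% of those tested. A gene was tested when it reached 1 FPKM in at least 2 libraries, which all 8 did with libraries of both groups. Both knockout libraries lay above all wild-type libraries for 4 of the 8 (Sirpa, Sirpb1a, Sirpb1c and Siglec1) and below them for 0. Of all tested genes, 13.9% lay above and 6.95% below in this way, 20.8% together, and nothing is read from the count. Of the 8 genes, 7 had a positive log2 difference, as had 63.9% of all tested genes. Their median was 0.29, beside 0.11 for all tested genes, on the scale of log2(FPKM + 1). Without wild-type replicate 3, 6 of the 8 were positive and the median was 0.13, beside 0.02 for all tested genes. In bulk RNA, fewer cells that express a gene and less RNA per cell cannot be told apart. With 2 against 3 libraries, an exact two-sided permutation test on the ranks of a single gene cannot give a p below 0.2.

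**Figure D1:**
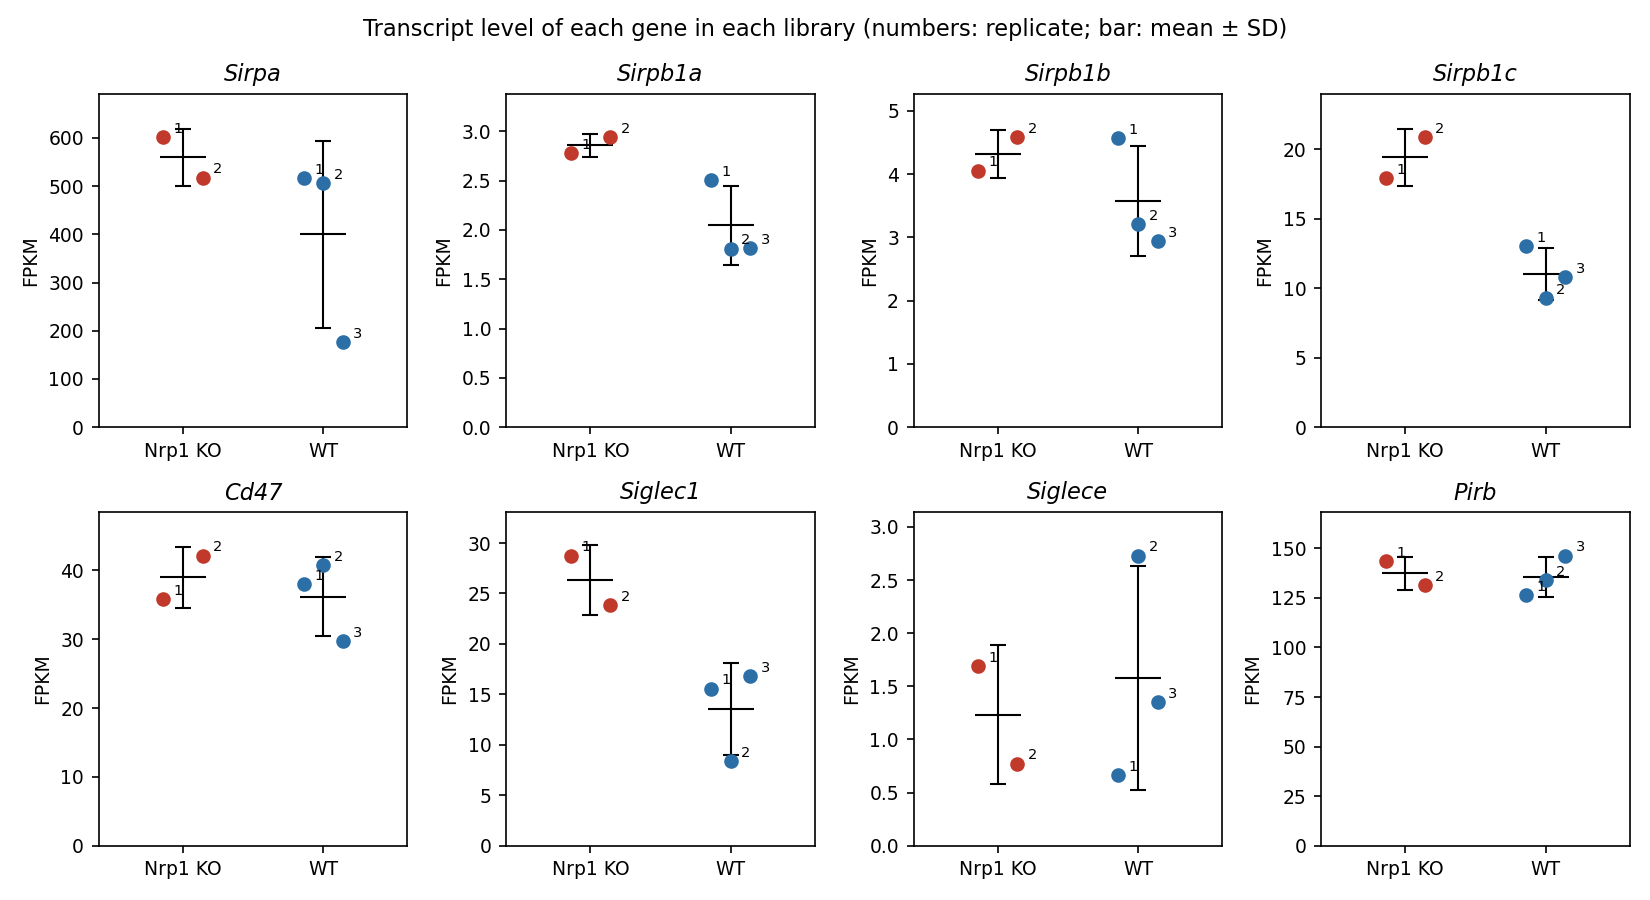
FPKM of each of the 8 genes (y axis, starting at 0 in each panel) in the 2 Nrp1 knockout (left) and 3 wild-type (right) libraries, with the replicate number beside each point and the mean ± SD as a bar. Sirpb1c and Siglec1 lie higher in both knockout libraries, and the wild-type spread of Sirpa comes from replicate 3 at 177 FPKM.

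Sirpa was by far the most abundant of the 8 genes. It stood at 602 and 518 FPKM in the knockout libraries, against 517, 506 and 177 FPKM in wild-type replicates 1, 2 and 3. The groups touch without overlapping, since knockout replicate 2 (517.6) and wild-type replicate 1 (517.1) are all but equal, and the distance between the means was set by wild-type replicate 3. Sirpa averaged 560 ± 59.6 FPKM in knockout (SD, n = 2) and 400 ± 193 in wild-type (SD, n = 3), 1.40-fold higher, with a log2 difference of 0.63 ± 0.49 (SE). Without wild-type replicate 3, the fold was 1.09 and the log2 difference 0.13 ± 0.17. In that library the mast cell marker sum was the highest (185 FPKM). So was the sum of the 11 macrophage markers other than Lyz1 (5646 FPKM). Sirpa was among the 98 to 150 most abundant tested genes in 4 libraries and ranked 484 in wild-type replicate 3. In that library it lay 1.59 log2 units below the mean of the other 4, where the median tested gene lay 0.30 below. The part of library composition in this drop was not tested.

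Cd47, the ligand of SIRP-alpha that marks cells as self, was detected at intermediate levels. It stood at 35.9 and 42.2 FPKM in the knockout libraries, against 38.0, 40.8 and 29.7 FPKM in the wild-type libraries. The groups overlap, and wild-type replicate 3 was again the lowest. Cd47 averaged 39.0 ± 4.43 FPKM in knockout and 36.2 ± 5.73 in wild-type, with a log2 difference of 0.12 ± 0.22 (SE), close to the median of all tested genes. A second Cd47 row in the table held at most 1.07e-06 FPKM and was added to the first. Within a library the receptor exceeded its ligand throughout, with 16.8 and 12.3 times as much Sirpa as Cd47 in the knockout libraries, against 13.6, 12.4 and 5.95 times in the wild-type libraries. In wild-type replicates 1 and 2 this ratio lay within the range of the knockout libraries.

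The activating counterparts were much less abundant. Sirpb1c stood at 18.0 and 20.9 FPKM in the knockout libraries, against 13.0, 9.27 and 10.8 FPKM in the wild-type libraries. Both knockout values lie above every wild-type value, and the gap between 13.0 and 18.0 exceeds the range within either group. Of all tested genes, 13.9% had both knockout values above every wild-type value. The means differed 1.76-fold, with a log2 difference of 0.77 ± 0.23 (SE), and 0.76 ± 0.20 without wild-type replicate 3. The difference thus stood almost as large without the library that decided the one of Sirpa. Leaving out any single library kept it between 0.66 and 0.89. As Sirpb1c was among the genes selected on this contrast, these values are a description only.

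Sirpb1a was scarce, with 2.77 and 2.94 FPKM in the knockout libraries, against 2.51, 1.81 and 1.82 FPKM in the wild-type libraries. Its groups did not overlap either, but the gap between the nearest values, 2.77 and 2.51, is smaller than the range of the wild-type replicates. The log2 difference was 0.35 ± 0.23 (SE). Sirpb1b stood at 4.05 and 4.58 FPKM in the knockout libraries, against 4.57, 3.21 and 2.94 in the wild-type libraries. Here the groups overlap, with wild-type replicate 1 level with knockout replicate 2, and the log2 difference was 0.23 ± 0.25.

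If the authors' counting kept reads shared between the copies, these enter the sum whichever copy they are assigned to. Whether it kept them was not tested. The sum of the 3 Sirpb1 genes was 24.8 and 28.4 FPKM in the knockout libraries, against 20.1, 14.3 and 15.6 FPKM in the wild-type libraries. It averaged 26.6 ± 2.57 FPKM in knockout and 16.7 ± 3.05 in wild-type, 1.60-fold higher, and the groups do not overlap. Sirpb1c made up 72.4% and 73.5% of that sum in the knockout libraries, against 64.8%, 64.9% and 69.4% in the wild-type libraries. Sirpb1b made up 16.4% and 16.1%, against 22.7%, 22.5% and 18.9%. Sirpb1a made up 11.2% and 10.4%, against 12.5%, 12.7% and 11.7%. The shares of all 3 copies were separate between the groups, and wild-type replicate 3 came nearest to the knockout libraries. The shares depend on each other, and the levels of single copies are uncertain. Sirpa exceeded the Sirpb1 sum 24.3 and 18.2 times in the knockout libraries, against 25.7, 35.4 and 11.4 times in the wild-type libraries, so the ratio of inhibitory to activating SIRP transcripts overlapped between the groups.

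**Figure D2:**
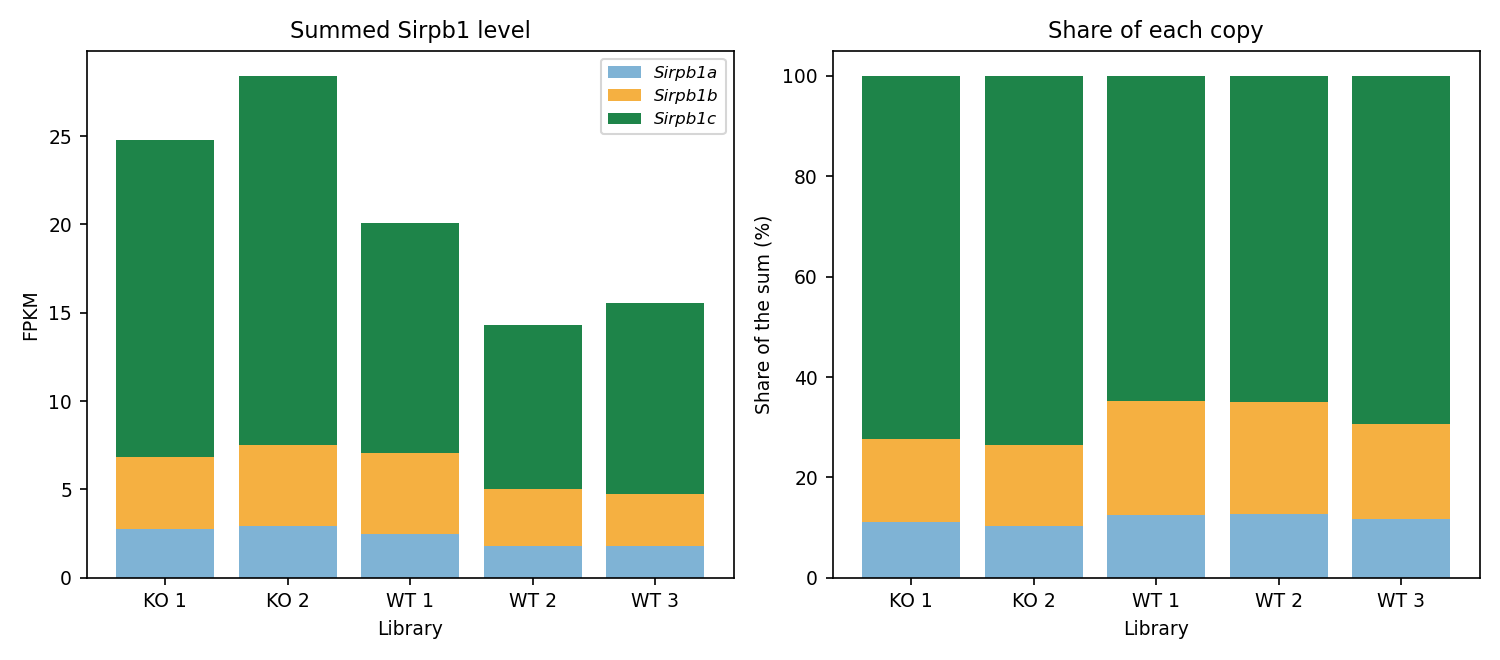
Left, FPKM of Sirpb1a, Sirpb1b and Sirpb1c stacked for each library (x axis, 2 knockout then 3 wild-type). Right, the percentage of the stacked sum that each copy contributes; Sirpb1c holds 72.4% and 73.5% in the knockout libraries and 64.8% to 69.4% in the wild-type libraries.

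Siglec1 had the largest difference of the 8 genes. It stood at 28.8 and 23.9 FPKM in the knockout libraries, against 15.6, 8.35 and 16.8 FPKM in the wild-type libraries. The groups are apart, and wild-type replicate 2 was the lowest library while replicates 1 and 3 were near each other. Siglec1 averaged 26.3 ± 3.45 FPKM in knockout and 13.6 ± 4.57 in wild-type, 1.94-fold higher, with a log2 difference of 0.96 ± 0.32 (SE). Leaving out wild-type replicate 3 gave 1.13 ± 0.29, and leaving out wild-type replicate 2 gave 0.66. Counted from the highest log2 difference of the 12214 tested genes, Siglec1 ranked 108, Sirpb1c 234 and Sirpa 493. Sirpb1a ranked 2484, Sirpb1b 4046, Cd47 5956, Pirb 7452 and Siglece 9943. As the genes were selected on this contrast, nothing is read from these ranks.

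Siglece was barely expressed. It stood at 1.69 and 0.773 FPKM in the knockout libraries, against 0.662, 2.73 and 1.35 FPKM in the wild-type libraries. The groups overlap fully, and the wild-type replicates alone span the whole range. The log2 difference was -0.16 ± 0.38 (SE), and its sign depended on single libraries, which was positive, at 0.15, when wild-type replicate 2 was left out and, at 0.14, when knockout replicate 2 was left out.

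Pirb was the steadiest of the 8 genes. It stood at 143 and 132 FPKM in the knockout libraries, against 127, 134 and 146 FPKM in the wild-type libraries. The groups lie within one another, and wild-type replicate 3 was the highest. Pirb averaged 138 ± 8.35 FPKM in knockout and 136 ± 10.0 in wild-type, a log2 difference of 0.02 ± 0.20 (SE). The range over the 5 alternatives that leave out a library was -0.04 to 0.08. Sequence is shared between Pirb and 9 other listed genes, among them the activating receptor gene Pira2, which holds 31.6% of the 50-base stretches of Pirb and stood at 9.07 and 7.88 FPKM in knockout and 8.13, 8.49 and 7.52 in wild-type. Of the 9, the most abundant was Gm15931, with 14.2 and 14.6 FPKM against 10.4, 10.1 and 9.43, a gene looked up because it shares 20.3% of the stretches of Pirb.

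**Figure D3:**
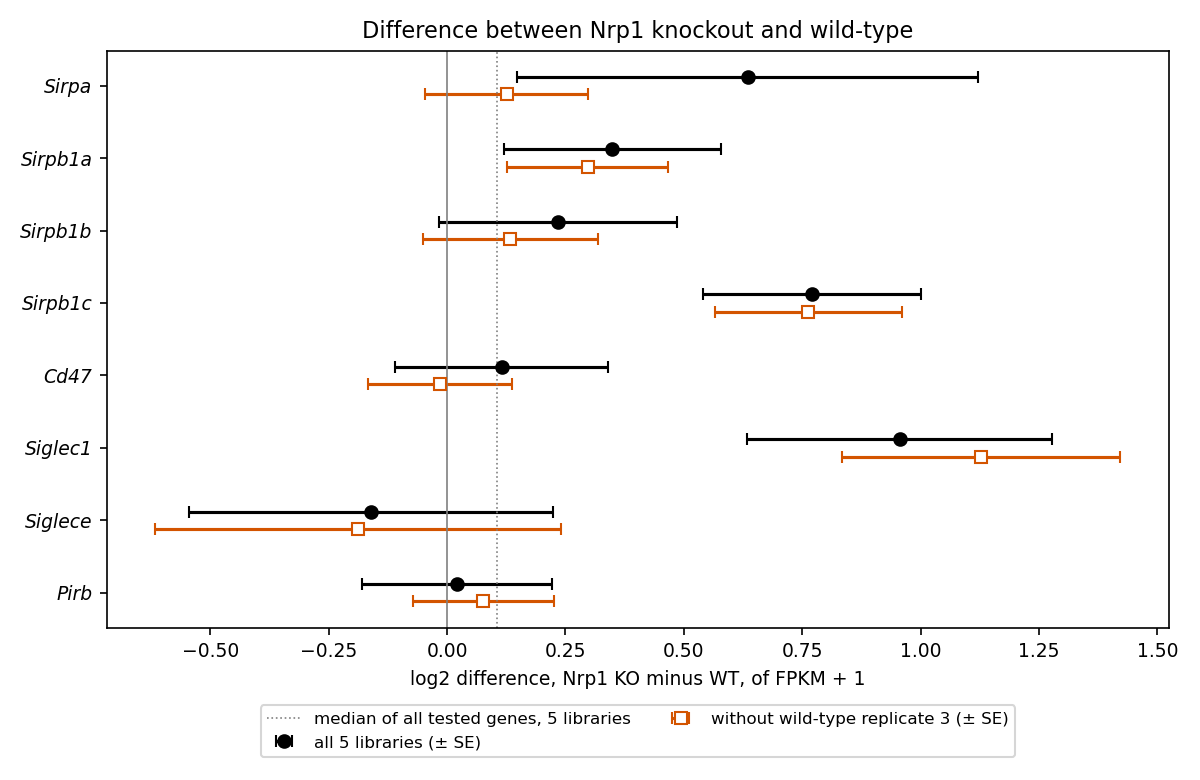
Log2 difference of FPKM + 1, knockout minus wild-type (x axis), for each gene (y axis), with all 5 libraries (filled circles) and without wild-type replicate 3 (open squares); bars are ± SE and the dotted line is the median of all tested genes, 0.11. Sirpa moves to 0.13 without that library, whereas Sirpb1c stays at 0.76 and Siglec1 lies at 1.13.

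Ordered by their mean level over the 5 libraries, the genes ran Sirpa, Pirb, Cd47, Siglec1, Sirpb1c, Sirpb1b, Sirpb1a and Siglece. Sirpa lay above Pirb in 5 of 5 libraries, by 1.21 to 4.20 times, the lowest ratio being that of wild-type replicate 3. Pirb lay above Cd47 by 3.12 to 4.92 times, and Cd47 above Siglec1 by 1.25 to 4.88 times. Siglec1 and Sirpb1c did not differ beyond their spread, since Siglec1 was the higher in 4 libraries and the lower in wild-type replicate 2. Sirpb1b lay above Sirpb1a in 5 of 5 libraries by 1.46 to 1.82 times, although their ranges over libraries overlap. Sirpb1a and Siglece changed places in wild-type replicate 2.

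**Figure D4:**
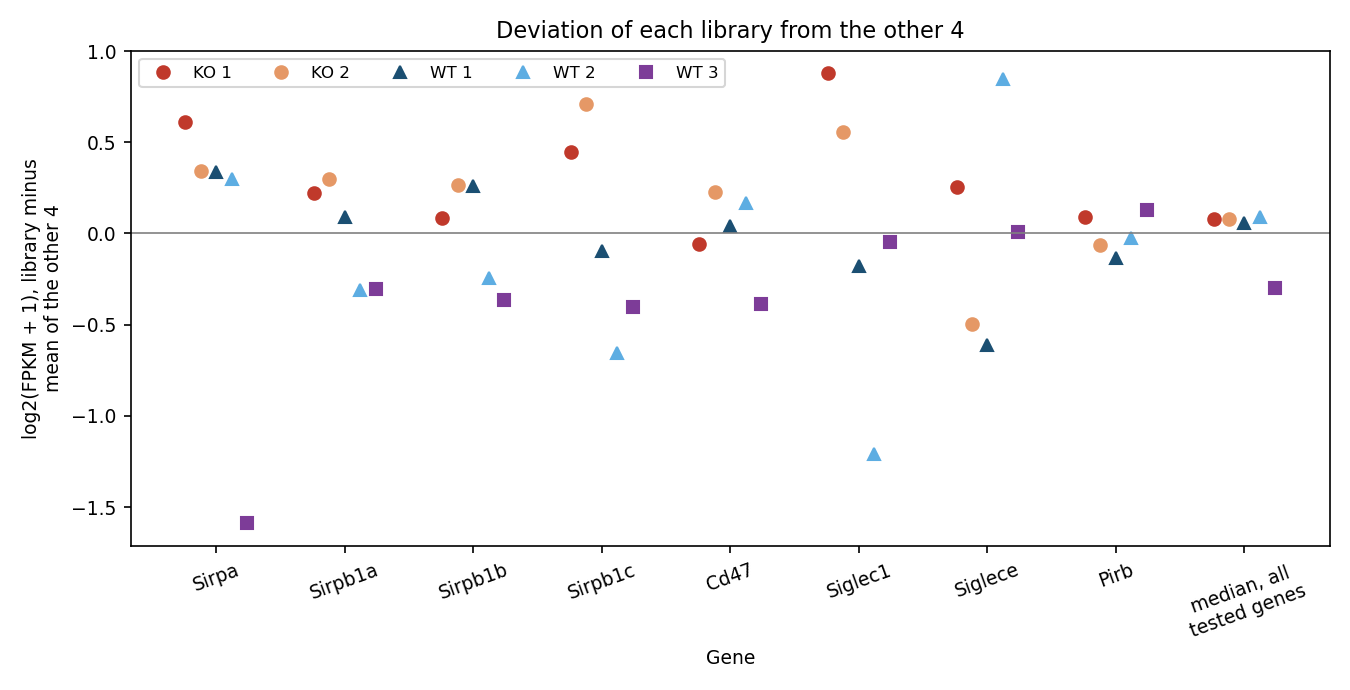
For each gene (x axis), log2(FPKM + 1) of a library minus the mean of the other 4 libraries (y axis), by library; the last column gives the median over all tested genes. Wild-type replicate 3 lies at -1.59 for Sirpa, against -0.30 for the median gene, and wild-type replicate 2 at -1.21 for Siglec1.

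The profile of each gene over the 5 libraries was compared with that of every tested gene of at least 5 FPKM on average, as the root-mean-square difference of log2(FPKM + 1) after each gene's mean was taken off. The nearest to Siglec1 was Prg4, which encodes lubricin, at a difference of 0.17 where Siglec1 itself varied by 0.57. Prg4 stood at 147 and 119 FPKM in the knockout libraries, against 81.8, 53.9 and 70.5 FPKM in the wild-type libraries. It shares with Siglec1 the 2 highest libraries and the lowest. The nearest to Sirpb1c was Pla2g7, which encodes a lipoprotein-associated phospholipase, at 0.10 where Sirpb1c varied by 0.41, with 833 and 964 FPKM against 652, 484 and 631. The nearest to Sirpa was Marf1, at 0.04, with 7.14 and 6.45 FPKM against 6.50, 6.28 and 1.46, so it too drops in wild-type replicate 3. Among the 8 genes, Sirpb1a and Sirpb1b were nearest to each other, at 0.09. They share 27.3% of their 50-base coding stretches, whereas Sirpb1b and Sirpb1c share 61.65%. No reads were examined. With 5 libraries these likenesses are descriptions.

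The other genes of the SIRP, Siglec and PIR/LILR families numbered 14 in the table, of which 11 were tested. None passed (0 higher and 0 lower in limma at an adjusted p under 0.05, 1 at an unadjusted p under 0.05), 9 had a positive log2 difference and the median was 0.23. Over all tested genes, 1.82% had an unadjusted p under 0.05 and 63.9% a positive difference. Without wild-type replicate 3, 7 of 10 were positive and the median was 0.18. Cd33, another Siglec of mouse myeloid cells, stood at 23.8 and 25.2 FPKM in the knockout libraries, against 19.2, 16.2 and 7.98 FPKM in the wild-type libraries. Its groups are apart, and the log2 difference of 0.80 ± 0.36 (SE) was 0.45 without wild-type replicate 3 (limma adjusted p = 0.93 with all libraries). Cd33 was thus many times more abundant than Siglece. Cd22, a Siglec best known from B cells, stood at 7.25 and 8.38 FPKM against 7.41, 5.27 and 6.43. In the B cell list, Ighm stood at 13.9 and 13.9 FPKM against 13.9, 9.21 and 16.2, Cd79a at 0.697 to 1.37 FPKM over all libraries and Ms4a1 at no more than 0.21, and their part in the level of Cd22 was not tested. Siglec5, the table's older symbol for Siglec-F, stood at 0.600 and 0.750 FPKM in knockout and 0.854, 1.13 and 1.23 in wild-type, and the eosinophil genes Epx and Prg2 were listed at 0 in every library. Siglecg and Siglech stayed below 0.15 FPKM, and Siglec15 was listed at 0.

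Among the leukocyte immunoglobulin-like receptors, Lilrb4 and Gp49a, an inhibitory receptor gene and its activating partner, had mean levels between those of Sirpa and Pirb. Lilrb4 stood at 375 and 440 FPKM in knockout against 436, 425 and 324 in wild-type, and Gp49a at 221 and 249 against 232, 238 and 121. Both overlap between the groups. Lilra5 stood at 1.52 and 2.12 FPKM against 0.896, 1.14 and 0.736, and was the tested relative whose unadjusted p was under 0.05. The predicted genes Gm9733 and Gm5150, which flank the Sirpb1 copies on chromosome 3 and share 77.3% to 80.3% of aligned coding bases with them, stood at 1.76 and 2.20 against 1.50, 1.56 and 2.11, and at 2.77 and 4.23 against 3.93, 2.05 and 1.32. Neither shares a 50-base stretch with another gene. Both overlap between the groups, as does Sirpb1b, unlike Sirpb1a and Sirpb1c. Of all tested genes, 20.8% did not overlap, and nothing is read from this contrast.

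**Figure D5:**
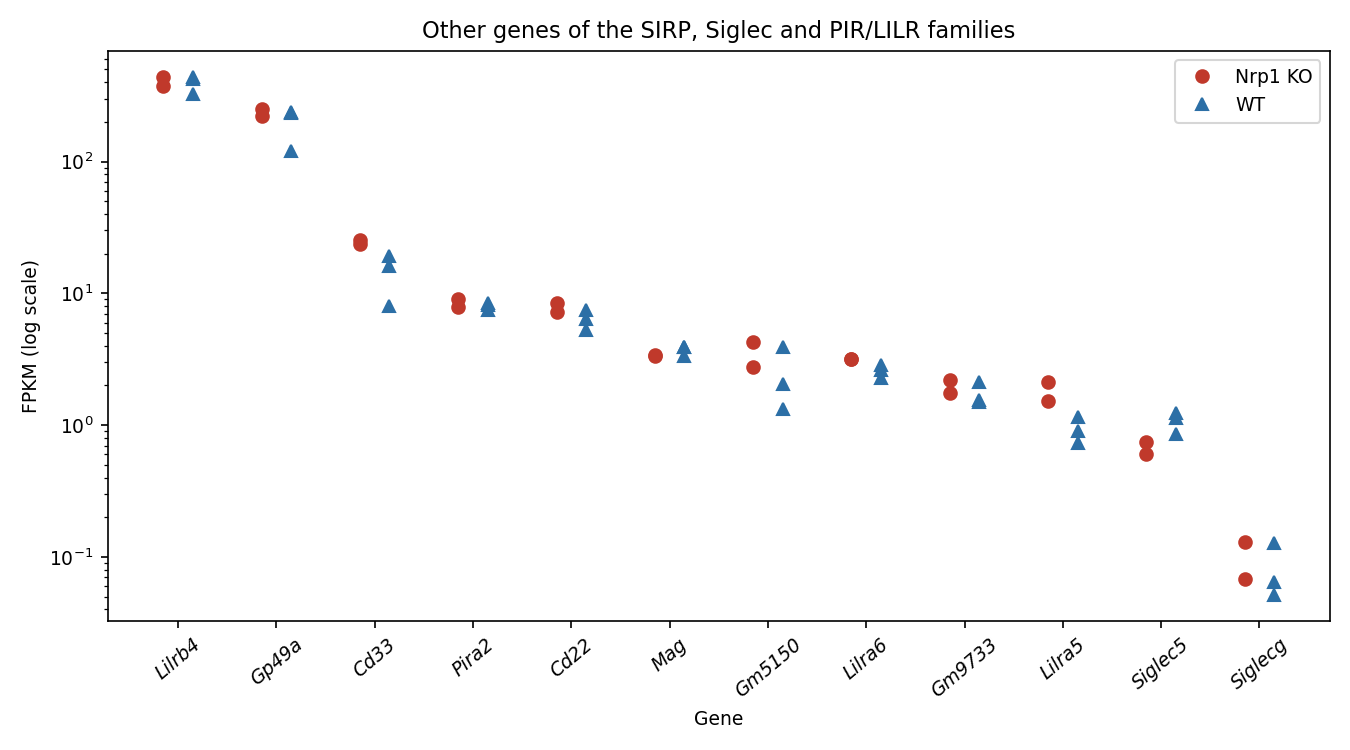
FPKM on a log axis (y) of the other SIRP, Siglec and PIR/LILR genes with a value above 0 in all libraries (x, ordered by mean level), knockout libraries as circles left of the wild-type libraries as triangles. Lilrb4 and Gp49a lead, and Cd33 exceeds the other Siglecs shown.

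Of 17 tested genes of inhibitory signalling, 0 passed (0 at an unadjusted p under 0.05 by limma), 6 had a positive and 11 a negative log2 difference, and the median was -0.08, beside 0.11 for all tested genes. Without wild-type replicate 3, 5 were positive and the median was -0.14. Ptpn6, which encodes SHP-1, stood at 261 and 159 FPKM in the knockout libraries, against 285, 256 and 305 FPKM in wild-type macrophages. Knockout replicate 2 alone was low. Inpp5d, the lipid phosphatase SHIP-1, stood at 174 and 129 FPKM against 116, 135 and 89.5. Of 14 tested genes of DAP12-coupled signalling, 0 passed (0 at an unadjusted p under 0.05) and 8 were positive, with a median of 0.07, but 7 with a median of -0.04 without wild-type replicate 3. Tyrobp, which encodes DAP12, stood at 2157 and 2457 FPKM against 2308, 2175 and 3157, and Syk at 115 and 96.7 against 105, 87.2 and 61.8. The adaptor thus exceeded the sum of the Sirpb1 receptors 87.0 and 86.5 times in the knockout libraries, against 115, 152 and 203 times in the wild-type libraries. These ratios do not overlap, and neither does the Sirpb1 sum, whereas Tyrobp itself overlaps. As the Sirpb1 genes were selected on this contrast, nothing is read from the ratios.

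Partners of CD47 and PIR-B and the sialic acid pathway also gave no called gene. Of 10 tested CD47 partners and modifiers, 0 passed (1 at an unadjusted p under 0.05 by limma, beside 1.82% of all tested genes), 7 were positive with a median of 0.23. Leaving out wild-type replicate 3, 9 were positive and the median was 0.05. Thbs1, thrombospondin 1, a secreted ligand of CD47, stood at 385 and 453 FPKM in the knockout libraries, against 184, 313 and 117 FPKM in the wild-type libraries, with a log2 difference of 1.14 ± 0.41 (SE) and 0.80 without wild-type replicate 3 (limma adjusted p = 0.93). Gnai2, an inhibitory G protein subunit, stood at 470 and 411 FPKM against 434, 473 and 760. Of 6 tested PIR-B ligands, 0 passed (0 at an unadjusted p under 0.05), and the 3 MHC class I genes among them lay higher in both knockout libraries than in any wild-type library, as did 13.9% of all tested genes. B2m stood at 2063 and 2680 FPKM against 1960, 1817 and 1857, H2-K1 at 1881 and 1734 against 1386, 1193 and 1620, and H2-D1 at 1612 and 1681 against 1250, 1296 and 1489. The wild-type replicate 3 values of H2-K1 and H2-D1 are realigned ones, and the log2 differences of 0.38 for H2-K1 and 0.30 for H2-D1 were 3.16 and 3.79 in the order as deposited. Rtn4, which encodes Nogo, another PIR-B ligand, lay on the other side with 128 and 121 FPKM against 133, 171 and 132.

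Of 18 tested genes for the synthesis, transfer and removal of sialic acid, the sugar that Siglecs bind, 0 passed (0 at an unadjusted p under 0.05 by limma), 12 were positive with a median of 0.03. Leaving out wild-type replicate 3 gave 6 positive genes and a median of -0.06. Neu1, the lysosomal sialidase, stood at 99.2 and 89.3 FPKM in knockout against 129, 80.8 and 66.1 in wild-type, and its protective protein gene Ctsa at 977 and 944 against 941, 966 and 1205. Cmas, which activates sialic acid for transfer, stood at 36.1 and 38.8 FPKM against 40.8, 36.5 and 34.0. Nans, the sialic acid synthase, stood at 39.1 and 37.1 FPKM against 43.3, 44.1 and 92.4, its groups apart and wild-type replicate 3 far above the rest. For Nans and Neu1 the wild-type replicate 3 value is realigned. Their log2 differences, -0.55 for Nans and 0.09 for Neu1, would be 1.63 and -0.42 without that step. Of 13 tested inhibitory receptors of other families, 0 passed (1 at an unadjusted p under 0.05) and 8 were positive, with a median of 0.04, but 4 with a median of -0.09 without wild-type replicate 3. Over all tested genes 1.82% had an unadjusted p under 0.05. The inhibitory Fc receptor gene Fcgr2b stood at 227 and 234 FPKM against 202, 202 and 170, and Cd72 at 6.22 and 3.17 FPKM against 7.20, 13.1 and 9.88. Of 9 tested surface signals for or against engulfment, 0 passed (0 at an unadjusted p under 0.05), 6 were positive and the median was 0.16, but 4 were positive without wild-type replicate 3, with a median of -0.00093. Among them Mertk, the receptor for bridged apoptotic cells, stood at 28.8 and 27.8 FPKM against 25.8, 21.1 and 17.2, and Calr, the engulfment signal calreticulin, at 329 and 264 against 368, 309 and 339.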

How the data were processed

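The authors' deposited table gives FPKM per gene for 5 libraries. Messenger RNA purified from total RNA was sequenced by Ion Torrent, per the labels' protocols. TopHat2 aligned the reads to mm10, Bowtie2 took those left unmapped, and the authors computed FPKM with Cufflinks, per the labels' protocols. The annotation and strand setting are not given in the sources used here, and 17 further columns were not used. The 38757 rows were sorted by name without hyphens, whereas the values of wild-type replicate 3 followed a sort that counts them. They were put back, which raised Pearson's r with the other libraries over 722 expressed displaced rows from 0.171 to 0.916. None of the 9 rows of the 8 genes was displaced. Rows with a number as name (27) or names differing only in case (50) were left out, and FPKM were summed per symbol.

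Genes with at least 1 FPKM in at least 2 libraries were tested with limma (version 3.58.1, under R version 4.3.3) after a log2(FPKM + 1) transform, with a mean-variance trend, genotype as the one term and Benjamini-Hochberg adjustment over all tested genes at 0.05. Fold changes on this scale understate those of low genes. The code was tested on simulated data. SE are limma's moderated ones. Nothing in the labels ties each library to its own mouse, and the spread that the p-values rest on may therefore be technical. The genes and lists were chosen with earlier results of these data known. Named genes are the 8, Nrp1, all relatives, from each list the 4 most abundant and the 2 of smallest unadjusted p (of which some are not reported here), and the nearest profiles. Gene positions and transcripts come from GENCODE vM21 and promoters from RefSeq (6 of the 8 genes matched), both GRCm38. The 15 alternatives are described with the limits.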

Additional observations from a re-analysis of the deposited data

How the results depend on the processing

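The numbers of genes called across the transcriptome, 5 higher and 2 lower, were small under every alternative. They were 2 and 1 with wild-type replicate 3 in the order as deposited, 3 higher with a pseudocount of 0.1 FPKM, 1 and 0 with no filter, 1 and 1 with a filter of 5 FPKM, and 12 and 9 with limma array weights. Leaving out a single library gave 0 to 7 higher and 0 to 7 lower, with 0 in both directions without knockout replicate 1 or 2 (36 and 34, or 41 and 26, at an unadjusted p under 0.05 by limma). With the replicate number as a block the counts were 3 and 1. The labels do not say that the numbers pair the libraries, and the differences between replicates 1 and 2 of the 2 groups had r = -0.04 across genes.

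The log2 difference of the 8 genes, of which Sirpb1a, Sirpb1b and Siglece did not pass the filter of 5 FPKM, kept its sign in all alternatives run for Sirpa (0.13 to 0.90), Sirpb1a (0.18 to 0.48), Sirpb1b (0.05 to 0.38), Sirpb1c (0.64 to 0.89) and Siglec1 (0.66 to 1.13), and changed it in some for Cd47 (-0.02 to 0.23), Siglece (-0.46 to 0.15) and Pirb (-0.11 to 0.10). Rescaling by the median of ratios moved the median of all tested genes from 0.11 to -0.01. With library weights Sirpa lay at 0.17 and Sirpb1b at 0.05.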
